A study of Mus musculus with 28 samples.

Results

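The genes described here are those of the motile cilium whose symbols follow 6 naming patterns: Cfap with a number (cilia and flagella associated proteins), Dnah with a number (axonemal dynein heavy chains), Dnaic and Dnai with a number (dynein intermediate chains), Rsph with a number (radial spoke head proteins) and Tekt with a number (tektins). The patterns matched 58 of the 23350 gene symbols listed in the 28 libraries of the series: 31 Cfap, 12 Dnah, 2 Dnaic, 8 Rsph and 5 Tekt genes, and no Dnai gene. The tables of 12 libraries list all 58 members, and those of the other 16 libraries list 40 of them. A total of 17 members were at 0 in every table that lists them, and 41 were above 0 in at least 1 library.

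A motile cilium is built around the axoneme, a ring of doublet microtubules about a central pair. Outer and inner dynein arms slide the doublets past each other, radial spokes carry signals between the central pair and the arms, and tektins and other proteins inside the microtubule wall hold the doublets together. In the lung these genes are known as the programme of the multiciliated cells of the conducting airways, where the transcription factors FOXJ1 and RFX switch many of them on. Alveolar cells, innate lymphoid cells and basophils are not known as multiciliated cells.

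RNA was measured in cells sorted from the lungs of wild-type C57BL/6 mice aged 8 weeks, with 4 cell labels: type 2 alveolar epithelial cells (AEC2, 6 libraries), type 1 alveolar epithelial cells (AEC1, 6 libraries), group 2 innate lymphoid cells (ILC2, 9 libraries) and basophils (7 libraries). Mice received papain with FK506, papain, or no treatment. Papain, a plant protease that provokes allergic lung inflammation, was given into the nose at 50 µg per day, and FK506 (tacrolimus), an inhibitor of the phosphatase calcineurin, into the peritoneum at 0.2 mg per day in 2 courses, the later of them together with papain. Each condition has 2 libraries in AEC2 and in AEC1 and 3 in ILC2. Basophils have 3 libraries with papain and FK506, 3 with papain and 1 untreated library whose title names 2 controls. No label says whether the other replicates came from separate mice, so p-values measure only the spread between these libraries. In sorted bulk RNA, fewer cells of a type and less RNA per cell cannot be told apart. The labels do not say whether papain and untreated mice were given the vehicle of FK506.

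Levels are the authors' deposited CPM (reads of a gene scaled to the library total), from libraries that read the 3' ends of transcripts. The untreated AEC2 replicate 1 and all ILC2 libraries are given as whole numbers. The listed values summed to 986818.7 to 992526.5 CPM in AEC libraries, 519768.0 to 636598.0 CPM in ILC2 and 612433.8 to 672356.8 CPM in basophils. Levels of different genes are not compared with each other. Read totals were 847513 to 974739 in AEC1 and 1206886 to 1336639 in the 5 AEC2 libraries where they could be recovered, and 1 read was worth 0.7481 to 1.1799 CPM, so that a level below about 10 CPM rests on few reads. The libraries were sparse: 20.1 to 29.5% of the listed genes were above 0 in AEC2 libraries and 28.7 to 33.2% in AEC1 libraries, and a value of 0 is given only as listed at 0. Alveolar type 2 markers summed to 121414 to 145769.6 CPM in AEC2 libraries. In AEC1 libraries the type 1 markers summed to 784.2 to 1110.8 CPM, below their 1731.0 to 4191.7 CPM in AEC2 libraries. The AEC1 libraries also held 1696.5 to 10209.1 CPM of type 2 markers. They held 4954.6 to 12654.0 CPM of fibroblast and smooth muscle genes and 1546.2 to 4956.1 CPM of genes that mark mesothelium. In the basophil libraries Mcpt8 and Fcer1a, which define that cell, were listed at 0 in all 7. The list of 8 basophil markers summed to 0 to 287.8 CPM there, with at most 3 genes above 0 in a library. Macrophage markers summed to 3200.8 to 9948.8 CPM in the same 7 libraries. The ILC2 library with papain and FK506 replicate 3 stood apart: its ILC2 markers summed to 49 CPM, with Gata3 and Il1rl1 at 0, while the other 8 ILC2 libraries held 1523 to 3767 CPM, and its macrophage markers summed to 5947 CPM. The names AEC2, AEC1, ILC2 and basophil are therefore used as labels only.

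A pair of AEC2 libraries with different treatment labels stood apart by being nearly the same. The papain replicate 2 and the untreated replicate 2 shared 6380 of the 6534 genes above 0 in either, with a correlation across genes of 0.97 on the log2 scale, against 0.19 to 0.39 for the other pairs of AEC2 libraries and at most 0.59 for other pairs within a cell label. All 20 members above 0 in either were above 0 in both. Among the 18 members at 10 CPM or more, the ratio of papain over untreated lay between 0.834 and 1.07, beside a median of 1.054 over all genes at 30 CPM or more. Calls of members that involve AEC2 are given with and without this pair. Calls of genes in the other lists are given only with it.

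**Figure D1:**
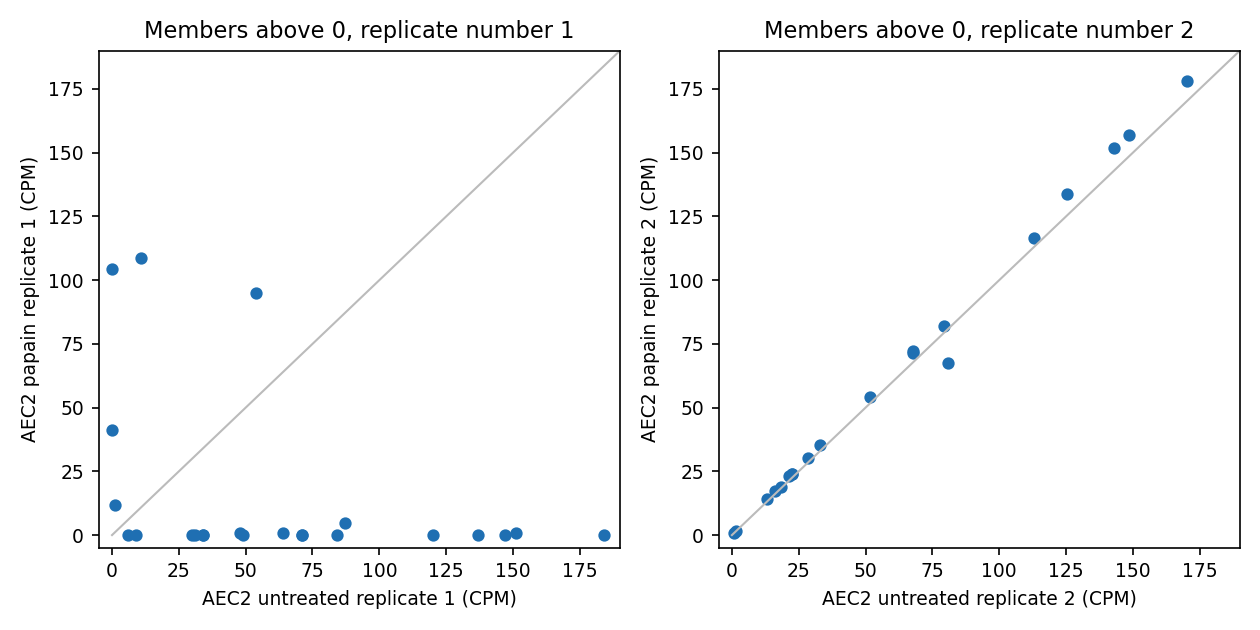
Levels (CPM) of each member above 0 in either library of an AEC2 pair, papain on the vertical axis and untreated on the horizontal axis, for replicate number 1 (left) and replicate number 2 (right); the grey line marks equality. In the right plot all 20 members lie near the line, while in the left plot most members lie along an axis.

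Summed over the members, transcripts of the motile cilium were highest in the AEC2 libraries. The sum was 953.2 and 1110.2 CPM in AEC2 with papain and FK506, 367.8 and 1274.3 CPM in AEC2 with papain, and 1423.0 and 1225.1 CPM in untreated AEC2. In AEC1 it was 108.6 and 85.1 CPM with papain and FK506, 245.8 and 170.2 CPM with papain, and 516.3 and 935.3 CPM in untreated libraries. The 3 AEC1 conditions did not overlap. In the AEC1 papain replicate 2, however, Cfap43 alone made up 110.7 CPM (65.0%) of the sum. Only through Cfap43 did that library lie above those with papain and FK506. The lowest AEC2 library (papain replicate 1) lay below both untreated AEC1 libraries. Without the near-identical pair the 4 remaining AEC2 sums still spanned 367.8 to 1423.0 CPM.

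In ILC2 the sum was 301, 35 and 55 CPM with papain and FK506, 41, 96 and 6 CPM with papain, and 42, 25 and 288 CPM in untreated libraries. In basophils it was 174.1, 57.0 and 38.1 CPM with papain and FK506, 59.2, 13.2 and 73.0 CPM with papain, and 0 CPM in the untreated library, which listed 2002 genes above 0. The tables of these 2 cell labels list 40 members, so their sums are over fewer genes than those of the AEC libraries. The median over libraries was 1167.6 CPM in AEC2, 208.0 CPM in AEC1, 42.0 CPM in ILC2 and 57.0 CPM in basophils. Listed values summed to less in ILC2 and basophil libraries than in AEC libraries, so these sums are not on an equal scale. Scaled so that listed values reach the full CPM total, group means were 828.8 to 1335.2 in AEC2 and 98.1 to 733.6 in AEC1. They were 78.0 to 217.7 in ILC2 and 73.8 and 142.9 in treated basophils. On that scale ILC2 untreated replicate 3 stood at 526.1, above AEC1 untreated replicate 1 (522.0) and AEC2 papain replicate 1 (371.4).

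**Figure D2:**
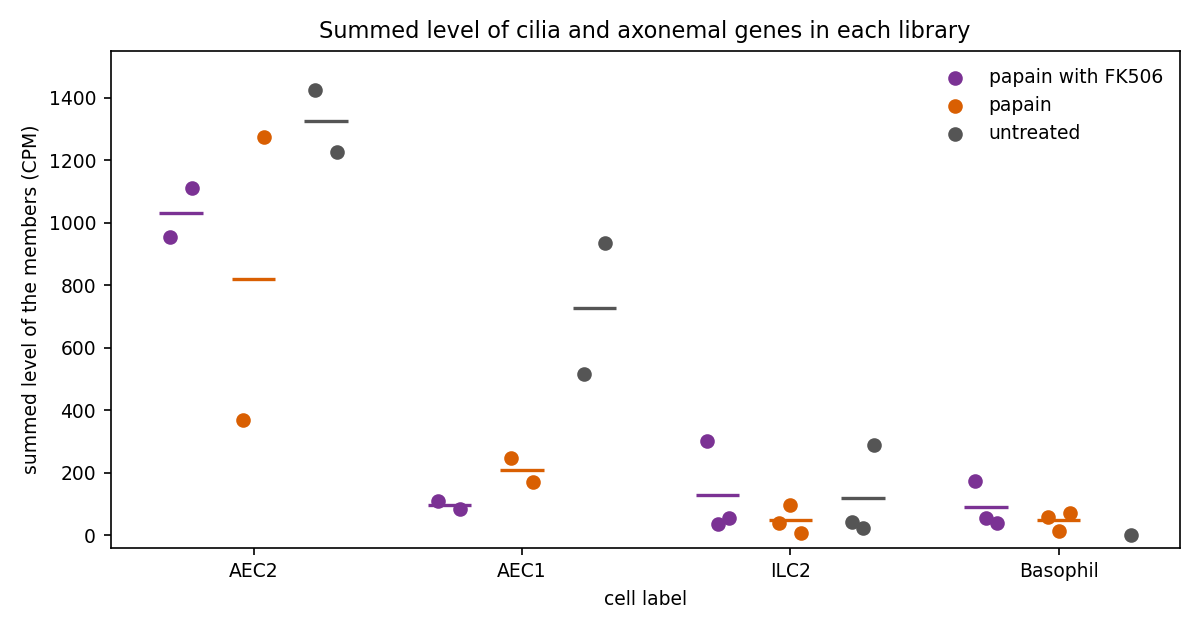
Summed level (CPM) of the members in each of the 28 libraries, by cell label and treatment; points are libraries and bars are group means. AEC2 libraries lie at 367.8 to 1423.0 CPM and AEC1 libraries at 85.1 to 935.3 CPM, and no ILC2 or basophil library exceeds 301 CPM. Listed values sum to less in ILC2 and basophil libraries, and the levels shown are not corrected for this. The 3 AEC1 conditions do not overlap, but Cfap43 alone gives 65.0% of the sum in the AEC1 papain replicate 2.

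The families shared the sum unevenly. Cfap genes made up 535.7 and 717.4 CPM of it in AEC2 with papain and FK506, 59.2 and 882.5 CPM in AEC2 with papain, and 826.0 and 855.0 CPM in untreated AEC2. Dnah genes gave 94.8 to 269.3 CPM and Rsph genes 109.4 to 211.0 CPM in the 6 AEC2 libraries. In the papain replicate 1 the Cfap share was thus low while Dnah, Rsph and Dnaic genes stood at 94.8, 109.6 and 104.2 CPM. In AEC1, Rsph genes were above 0 in the 2 papain libraries, at 53.0 and 19.5 CPM, and at 0 in the other 4, both untreated libraries included. Dnah genes reached 24.5 and 8.3 CPM in AEC1 with papain and FK506, 0 and 1.0 CPM with papain, and 68.4 and 156.6 CPM in untreated AEC1.

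Of the 58 members, 38 were above 0 in at least 1 AEC2 library and 24 in at least 1 AEC1 library, with 22 in both, 16 in AEC2 alone and 2 in AEC1 alone (Cfap97 and Dnah8). A single AEC2 library held 9 to 28 of them. In AEC2, 17 members were above 0 in 4 or more of the 6 libraries, and 4 were above 0 in all 6: the dynein Dnah10 and the microtubule wall proteins Cfap20, Cfap45 and Cfap126. Only Dnah10 reached 10 CPM in all 6, and the lowest values of Cfap20, Cfap45 and Cfap126 were 4.7, 0.8 and 1.0 CPM. A total of 6 members were above 0 in exactly 1 of all libraries, at 0.7 to 31.0 CPM.

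**Figure D3:**
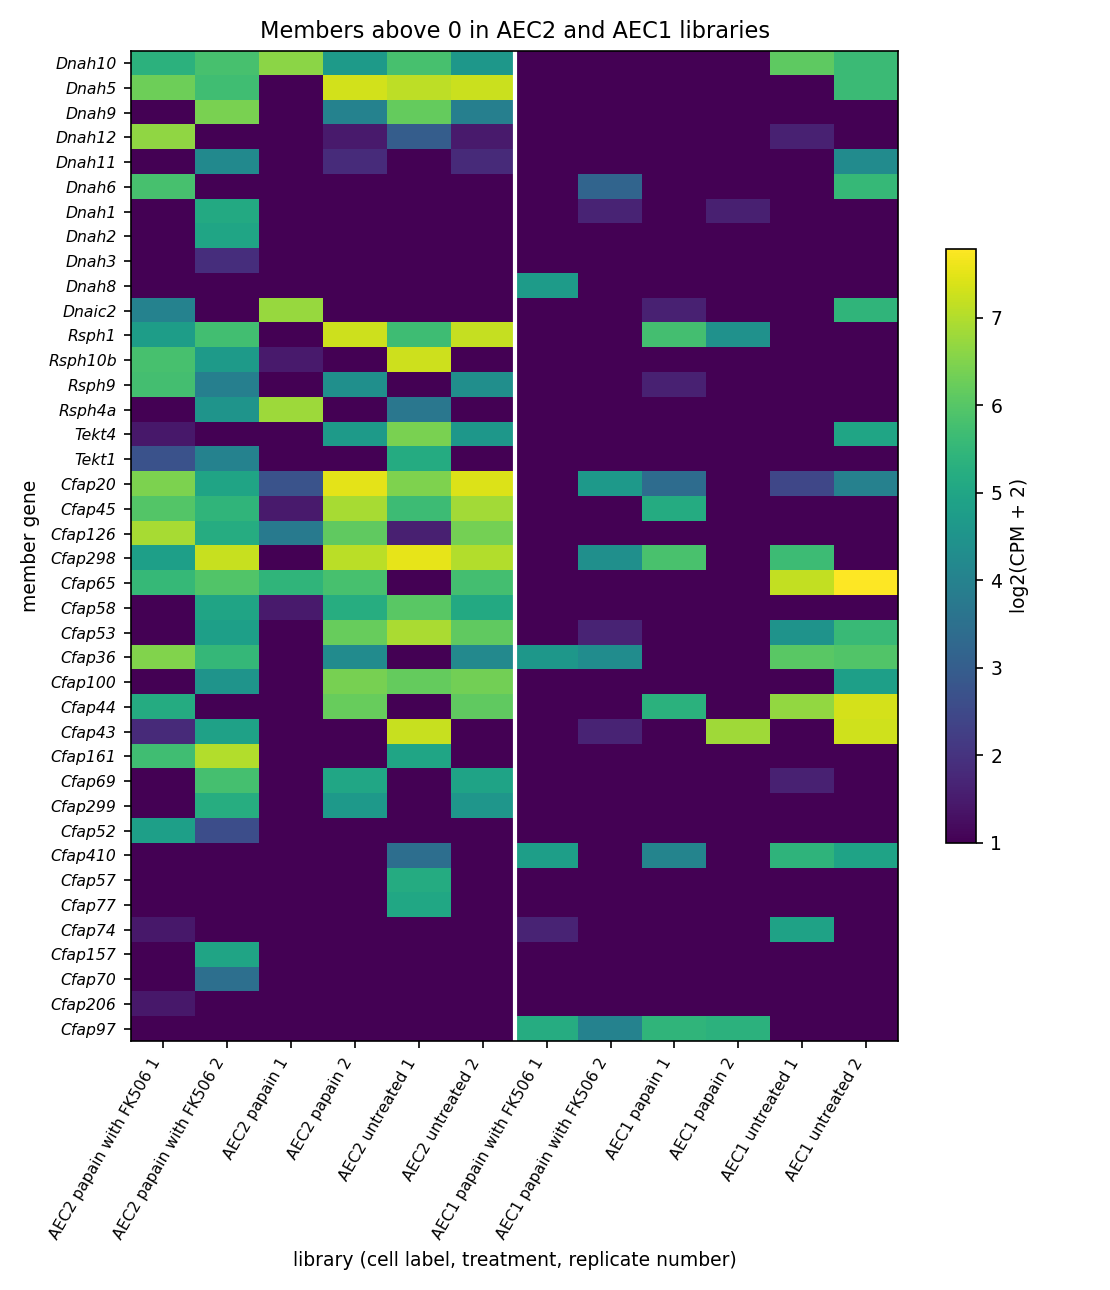
Level of each member above 0 in at least 1 AEC library, as log2(CPM + 2) by colour, in the 6 AEC2 libraries (left of the white line) and the 6 AEC1 libraries (right of it), grouped by family; the darkest colour marks genes listed at 0. Dnah10, Cfap20, Cfap45 and Cfap126 are above 0 across the AEC2 libraries, with lowest values of 22.3, 4.7, 0.8 and 1.0 CPM. Among these 12 libraries Cfap97 is above 0 only in treated AEC1 libraries.

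The comparison of the cell labels asks which members differ between sorted AEC2 and AEC1 cells. It set 6 AEC2 against 6 AEC1 libraries with the 3 conditions weighted equally, over 9841 genes that reached 10 CPM in at least 2 of the 12 libraries. Differences are on the log2(CPM + 2) scale, AEC2 minus AEC1, which understates the change of low genes. Of the 58 members 28 passed the filter on low values, and 3 of these were called at an adjusted p under 0.05 (limma, Benjamini-Hochberg over all genes): Cfap126 and Dnah10 higher and Cfap97 lower in AEC2. Over all genes 12.7% were called, 436 higher and 812 lower, so 3 of 28 is near that background. All 3 calls depended on single libraries: of 12 fits that each left out 1 library, Cfap126 passed in 5 (adjusted p 0.0106 to 0.061), Cfap97 in 7 (0.0152 to 0.0555) and Dnah10 in 8 (0.0268 to 0.0703). Cfap126 lost its call without the AEC2 papain replicate 2, the AEC2 papain with FK506 replicate 1, or any AEC1 library other than the untreated replicate 1. Cfap97 lost it without any AEC2 library other than the papain replicate 2. Dnah10 lost it without either AEC2 library with papain and FK506, the AEC2 papain replicate 1 or the untreated AEC2 replicate 1. The 28 differences had a median of 2.03, with 22 above 0 and 6 below it (Cfap36 among these, at 0.00 after rounding), against a median of -0.45 over all genes tested. Members at 0 in all AEC1 libraries could pass the filter only through AEC2, so the median and the count of signs are partly set by the filter; without it the median was 1.43 over 40 members and -0.437 over all genes. On recovered reads, which lack the untreated AEC2 replicate 1, edgeR called 5 of 27 members beside 9.17% of all genes, and DESeq2 6 of 27 beside 16.6%. Without the near-identical pair 1094 of 9401 genes (11.6%) and 4 of 26 tested members were called, with a median of 1.69 over those members and -0.856 over all genes.

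**Figure D4:**
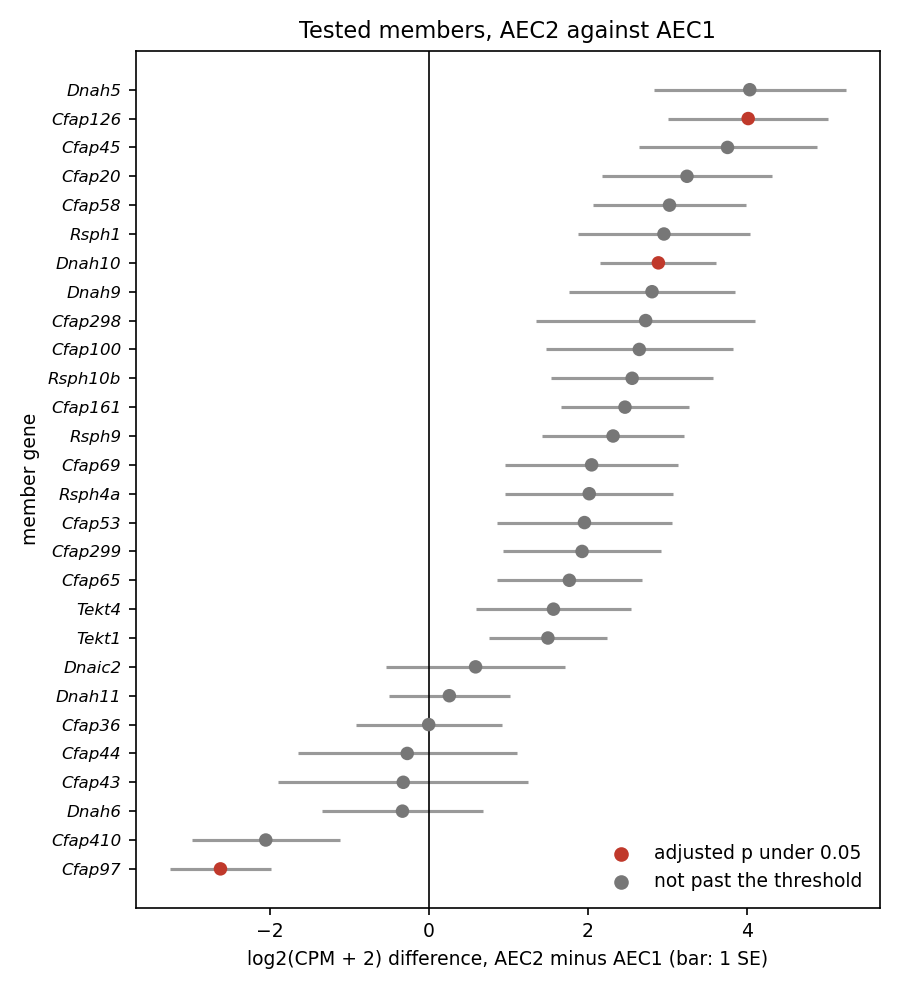
Difference in log2(CPM + 2) between AEC2 and AEC1 (AEC2 minus AEC1) for the 28 tested members, with bars of 1 standard error; red points passed an adjusted p of 0.05. Points run from 4.04 for Dnah5 to -2.62 for Cfap97, and only Cfap126, Dnah10 and Cfap97 are red.

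Among the outer dynein arm genes none passed the test. Dnah5, a heavy chain of the outer arms, stood at 75.6 and 50.5 CPM in AEC2 with papain and FK506, 0 and 156.9 CPM in AEC2 with papain, and 137.0 and 148.5 CPM in untreated AEC2. In AEC1 it stood at 47.2 CPM in the untreated replicate 2 and at 0 in the other 5 libraries. The groups overlapped through the AEC2 papain replicate 1, and the difference was 4.04 (SE 1.21, limma adjusted p = 0.0507). The heavy chain Dnah9 was above 0 in 4 AEC2 libraries (13.1 to 83.7 CPM) and in no AEC1 library, with an adjusted p of 0.0979 in limma. Dnah11, another outer arm heavy chain, reached 16.6 CPM in AEC2 and 17.3 CPM in AEC1, and both values are uncertain because its last kilobase overlaps Cdca7l. The intermediate chain Dnaic2 was above 0 in 2 AEC2 libraries (104.2 CPM in papain replicate 1 and 14.2 CPM in papain with FK506 replicate 1) and in 2 AEC1 libraries (41.4 and 1.1 CPM). Dnaic1 was listed at 0 everywhere.

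Among the inner arm genes, Dnah10 (GRCm38 chromosome 5, 124725085 to 124834308, plus strand) passed the test. It stood at 38.9 and 53.9 CPM in AEC2 with papain and FK506, 94.8 and 23.8 CPM in AEC2 with papain, and 54.0 and 22.3 CPM in untreated AEC2. In AEC1 it was at 0 in the 4 treated libraries and at 67.3 and 47.2 CPM in the untreated libraries. The labels overlapped, since both untreated AEC1 libraries lay within the AEC2 range of 22.3 to 94.8 CPM. The difference was 2.89 (SE 0.73, limma adjusted p = 0.0253), and 3.42 with an adjusted p of 0.0254 in limma without the near-identical pair. Dnah12 reached 98.8 CPM in AEC2 with papain and FK506 replicate 1 and at most 6.0 CPM in every other AEC library. Dnah6 was above 0 in 1 AEC2 library (53.9 CPM) and 2 AEC1 libraries (44.9 and 7.1 CPM), and its last kilobase overlaps Gm20560 on the opposite strand. Dnah1, Dnah2 and Dnah3 reached 33.1, 29.8 and 1.7 CPM in AEC2 with papain and FK506 replicate 2, the library with the most members above 0 (28), and none of them exceeded 1.2 CPM in AEC1.

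Radial spoke genes were above 0 mainly in AEC2. Rsph1, a protein of the spoke head, stood at 25.4 and 51.4 CPM in AEC2 with papain and FK506, 0 and 152.0 CPM in AEC2 with papain, and 49.0 and 143.1 CPM in untreated AEC2. In AEC1 it was at 51.9 and 19.5 CPM with papain and at 0 in the other 4 libraries, and the difference was 2.96 (SE 1.08, limma adjusted p = 0.0939). The spoke head genes Rsph4a and Rsph10b were at 0 in all AEC1 libraries and reached 108.8 and 151.0 CPM in AEC2, and both were at 0 in the near-identical pair. Without that pair they were among the 4 members called, with Dnah10 and Cfap161, all higher in AEC2. Rsph4a, Rsph10b and Cfap161 passed the filter only through AEC2 libraries, which fixes their sign, and Cfap161 was also at 0 in the pair left out. Rsph9 was above 0 in 4 AEC2 libraries (13.3 to 51.6 CPM) and at 1.1 CPM in 1 AEC1 library. The last kilobase of Rsph9 overlaps Mrps18a. Rsph3b, Rsph6a and Rsph14 were at 0 in all 28 tables, and Rsph3a was above 0 in 1 ILC2 library, at 9 CPM.

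Tektins, which form filaments in the wall of the doublets, were few. Tekt1 was above 0 in 3 AEC2 libraries (4.5 to 34 CPM) and in no AEC1 library. Tekt4 reached 84.0 CPM in the untreated AEC2 replicate 1 and 29.9 CPM in the untreated AEC1 replicate 2. Tekt2, Tekt3 and Tekt5 were listed at 0 in all 28 tables.

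Among the proteins of the microtubule wall, Cfap126 (also called Flattop; GRCm38 chromosome 1, 171113918 to 171126967, plus strand) was listed at 0 in all 6 AEC1 libraries. It stood at 117.5 and 34.8 CPM in AEC2 with papain and FK506, 11.7 and 67.4 CPM in AEC2 with papain, and 1.0 and 80.8 CPM in untreated AEC2. All 6 AEC2 libraries were above the AEC1 libraries, the lowest of them at 1.0 CPM, a level that rests on few reads. Cfap126 passed the filter on low values only through AEC2 libraries, which fixes its sign. The adjusted p was 0.0243 (limma), or 0.0549 without the near-identical pair. Its fitted difference of 4.02 (SE 1.01) depends on the 2 CPM added to every value and is no fold. Cfap45, another wall protein, stood at 60.6 and 41.4 CPM in AEC2 with papain and FK506, 0.8 and 116.7 CPM in AEC2 with papain, and 48.0 and 113.1 CPM in untreated AEC2, against 33.9 CPM in AEC1 papain replicate 1 and 0 in the other AEC1 libraries (difference 3.76, SE 1.12, limma adjusted p = 0.0503). Cfap20, which lies at the inner junction of the doublet, ranged over 4.7 to 178.3 CPM in AEC2 and over 0 to 23.6 CPM in AEC1 (difference 3.25, SE 1.07, limma adjusted p = 0.07). Cfap161 and Cfap52 were at 0 in AEC1 and reached 126.8 and 26.2 CPM in AEC2. Cfap53 overlapped between the labels, with 0 to 120.0 CPM in AEC2 and 0 to 46.0 CPM in AEC1.

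The other Cfap genes varied more. Cfap65, known from sperm flagella, was at 0 in the 4 treated AEC1 libraries and at 141.4 and 218.5 CPM in the untreated ones, against 0 to 59.7 CPM in AEC2 (difference 1.77, SE 0.91, limma adjusted p = 0.229). Cfap65 overlaps an antisense gene in its last kilobase, and the strand setting of the counting is not given. Cfap43 and Cfap44, which tether inner dynein arms, reached 147.0 and 71.5 CPM in AEC2 and 154.1 and 159.9 CPM in AEC1. Cfap298, which takes part in assembling dynein arms in the cytoplasm, ranged over 0 to 184.0 CPM in AEC2 and 0 to 55.1 CPM in AEC1. The last kilobase of Cfap298 overlaps Gm49727, and that of Cfap100 overlaps Zxdc, each on the opposite strand. Cfap58 and Cfap69, both known from sperm flagella, reached 64.0 and 53.0 CPM in AEC2 and 0 and 1.1 CPM in AEC1. Cfap410, a protein of the ciliary base, was at 9.0 CPM in 1 AEC2 library and reached 40.4 CPM in AEC1. Cfap36, a binding partner of the small GTPase ARL3, ranged over 0 to 88.3 CPM in AEC2 and 0 to 64.0 CPM in AEC1, with a fitted difference of 0 (SE 0.92).

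Cfap97 (GRCm38 chromosome 8, 46151771 to 46195590, plus strand) ran opposite to the other called members. It was listed at 0 in all 6 AEC2 libraries and in both untreated AEC1 libraries, and stood at 35.0 and 14.2 CPM in AEC1 with papain and FK506 and at 41.3 and 39.0 CPM in AEC1 with papain. The adjusted p for AEC2 against AEC1 was 0.0218 (limma), or 0.0727 without the near-identical pair and 1 in edgeR's quasi-likelihood test. Its signal in AEC1 was thus in the 4 treated libraries, and it passed the filter only through them, which fixes its sign. Cfap97 was also above 0 in 3 ILC2 libraries (3 to 7 CPM) and 1 basophil library (0.7 CPM).

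Promoters are shown because RFX factors, which switch on ciliary genes, read a known element, the X-box. The sequences are from RefSeq (build GRCm38.p6), each running from 250 bases before to 50 bases after an annotated start. They were found for 47 of the 58 members, with 54 promoters in all. The X-box letters searched were GTT, any base, CC, any 3 bases, G, any 2 bases and AC. On either strand they were in 7 of the 54 member promoters (12.96%) and in 728 of 32851 promoters of all genes (2.22%). The shorter element GTTGCC, which can lie inside an X-box, was in 31.48% of member promoters and 12.51% of all promoters, and the forkhead letters TGTTTAC were in 7.41% and 3.65%. A match describes these letters only. The first match in each of the 7 promoters is printed on the strand of the motif, with its fixed letters in capitals; the Tekt4 promoter holds a further match, which is not shown.
Tekt1: GTTgCCataGagAC
Tekt4: GTTtCCcagGacAC
Cfap44: GTTgCCataGcaAC
Cfap45: GTTaCCataGcaAC
Cfap298: GTTgCCcggGcaAC
Cfap61: GTTtCCttaGcaAC
Cfap206: GTTtCCacgGttAC

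Of these genes, Cfap44, Cfap45 and Cfap298 reached 71.5, 116.7 and 184.0 CPM in AEC2, while Cfap61 was listed at 0 in all 28 tables and Cfap206 reached 0.7 CPM in 1 library. The match in Cfap298 reads the same on both strands. The whole promoters of Dnah10, which holds the shorter element 2 times and no X-box, and of Cfap45, Cfap44 and Cfap298 follow, on the strand of the gene, with matches to the X-box or the shorter element in capitals. The promoters of Cfap126 and Dnah5 held none of the 3 elements.
Dnah10, chr5:124724835-124725134, plus strand: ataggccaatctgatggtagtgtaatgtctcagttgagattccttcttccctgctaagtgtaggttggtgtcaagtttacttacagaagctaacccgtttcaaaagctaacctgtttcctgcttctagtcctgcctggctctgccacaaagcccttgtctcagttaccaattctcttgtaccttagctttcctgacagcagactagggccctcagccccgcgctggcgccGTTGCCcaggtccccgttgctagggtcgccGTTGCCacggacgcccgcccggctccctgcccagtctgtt
Cfap45, chr1:172520880-172521179, plus strand: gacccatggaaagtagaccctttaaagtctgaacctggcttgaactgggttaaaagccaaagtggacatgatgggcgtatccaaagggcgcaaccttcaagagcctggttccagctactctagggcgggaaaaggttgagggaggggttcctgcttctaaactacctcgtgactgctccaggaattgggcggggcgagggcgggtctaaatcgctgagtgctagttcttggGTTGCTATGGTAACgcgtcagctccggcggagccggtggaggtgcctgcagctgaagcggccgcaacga
Cfap44, chr16:44394549-44394848, plus strand: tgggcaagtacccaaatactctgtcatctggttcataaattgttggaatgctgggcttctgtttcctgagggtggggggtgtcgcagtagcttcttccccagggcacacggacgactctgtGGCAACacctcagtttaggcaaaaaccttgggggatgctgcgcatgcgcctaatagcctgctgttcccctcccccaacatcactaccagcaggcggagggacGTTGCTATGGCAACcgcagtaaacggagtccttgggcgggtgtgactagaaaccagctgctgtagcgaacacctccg
Cfap298, chr16:90934800-90935099, minus strand: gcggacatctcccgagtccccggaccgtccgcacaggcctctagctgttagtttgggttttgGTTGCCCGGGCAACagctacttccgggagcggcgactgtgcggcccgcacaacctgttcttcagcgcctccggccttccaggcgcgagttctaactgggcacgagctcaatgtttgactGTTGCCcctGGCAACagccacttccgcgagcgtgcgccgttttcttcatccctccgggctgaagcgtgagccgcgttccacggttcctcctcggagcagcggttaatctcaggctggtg

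The genes that accompany these in multiciliated cells were listed separately. Foxj1, the transcription factor of motile ciliogenesis, stood at 673.6 and 406.0 CPM in AEC2 with papain and FK506, 0.8 and 548.8 CPM in AEC2 with papain, and 450.0 and 515.5 CPM in untreated AEC2. In AEC1 Foxj1 was at 1.2 CPM in 1 library and 0 in the other 5 (difference 6.70, SE 1.15, limma adjusted p = 0.00345). The other tested regulators of multiciliogenesis, Rfx2 and Rfx3, were not called, and Mcidas, Gmnc, Deup1 and Foxn4 were listed at 0 in all AEC libraries. The AEC2 papain replicate 1, where the members had their lowest AEC2 sum, was also the AEC2 library with 0.8 CPM of Foxj1.

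Of 16 other multiciliated cell genes 13 were tested, 8 were higher in AEC2 and none lower. Over all 9841 genes tested 12.7% were called, 436 higher and 812 lower. Genes such as Foxj1 and Ccdc153 passed the filter only through AEC2, which favours that direction. The calls of this and the other lists were not repeated with single libraries or the near-identical pair left out. Sec14l3 stood at 1110.7 and 1759.1 CPM in AEC2 with papain and FK506, 653.0 and 1149.4 CPM with papain, and 949.0 and 1101.1 CPM in untreated AEC2, against 0 to 181.8 CPM in AEC1 (difference 5.92, SE 0.47, limma adjusted p = 2.22e-05). Tppp3, a tubulin binding protein, ranged over 160.1 to 623.6 CPM in AEC2 and 4.7 to 115.4 CPM in AEC1. Ccdc153 ranged over 23.3 to 305.0 CPM in AEC2 and was listed at 0 in all AEC1 libraries. Of 20 other axonemal subunits 19 were tested and 4 were higher in AEC2, beside the 12.7% of all genes called in either direction. These were Dynlrb2, a dynein light chain (difference 6.46, SE 0.86), Ak7, Enkur and Ccdc40, which sets the spacing of dynein arms together with Ccdc39. The 19 tested subunits had a median difference of 1.45.

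Dynein assembly and docking factors gave 7 tested genes of 14 and no call, with a median difference of 1.92. Ccdc151, a docking factor, was at 0 in both AEC2 libraries with papain and FK506, at 0 and 105.2 CPM in those with papain, and at 105.0 and 99.3 CPM in the untreated ones, against at most 3.1 CPM in AEC1. Intraflagellar transport genes, which serve primary and motile cilia alike, had 13 tested genes of 16 with a median of -0.28. Of these 1 was called, beside 12.7% of all genes: Ift20, at 412.0 to 580.1 CPM in AEC2 and 102.1 to 401.9 CPM in AEC1.

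Some markers of airway secretory cells were also higher in AEC2. The 12 airway secretory genes summed to 11851.9 and 12291.1 CPM in AEC2 with papain and FK506, 3851.0 and 21374.4 CPM with papain, and 3923.0 and 20511.3 CPM in untreated AEC2, against 252.5 to 1360.2 CPM in AEC1. Of 9 tested, 4 were higher in AEC2 (Scgb1a1, Scgb3a2, Cyp2f2 and Hp) and 1 lower (Cldn10), beside 12.7% of all genes called in either direction. Muc5b and Muc5ac were listed at 0 in all 28 libraries. Of the 5 airway basal genes 1 was tested and called lower in AEC2 (Krt14); they summed to 48.0 CPM in 1 AEC2 library and to 0 in the other 5, and to 2.1 to 88.6 CPM in AEC1. The part of airway cells in the AEC2 levels was not tested.

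**Figure D5:**
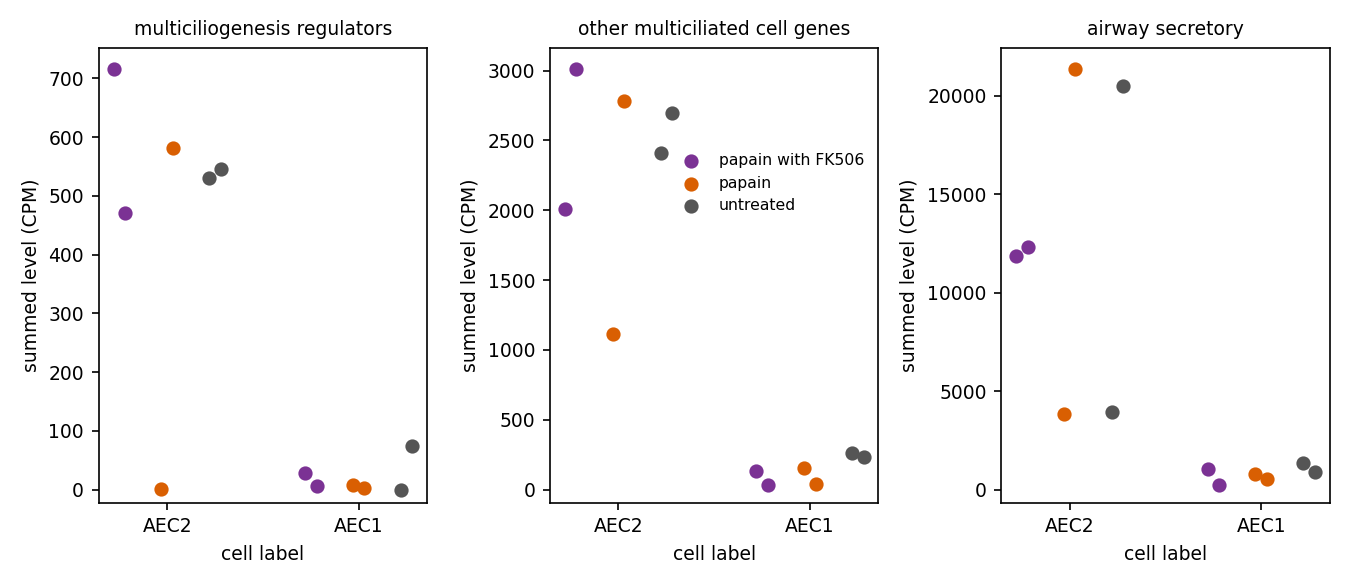
Summed level (CPM) of regulators of multiciliogenesis, other multiciliated cell genes and airway secretory genes in the AEC2 and AEC1 libraries, each point a library coloured by treatment; the 3 vertical axes differ. In all 3 plots the AEC1 libraries lie low, and the AEC2 papain replicate 1 is the lowest AEC2 library.

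Within AEC1 the question was how papain, and FK506 on top of papain, relate to the members' levels. Papain set against untreated gave 0 of 8178 genes called in limma (0% of all genes; 761 at an unadjusted p under 0.05), and 0 of the 11 members that passed the filter (6 at an unadjusted p under 0.05). On the recovered reads edgeR called 15 genes and no member, and DESeq2 322 genes with 2 members, Cfap36 and Cfap65. The 2 papain libraries lay below both untreated libraries for 6 of the 11 members (Cfap65, Dnah10, Cfap44, Cfap53, Cfap36 and Cfap410), beside 14.2% of all genes tested, and above both for 2 (Cfap97 and Rsph1), beside 19.2%. Cfap65 was at 0 in both papain libraries, against 141.4 and 218.5 CPM in untreated libraries (limma adjusted p = 0.442). Cfap44 was at 38.1 and 0 CPM with papain, against 101.0 and 159.9 CPM in untreated libraries (adjusted p = 0.59 in limma). Cfap36 was at 0 in both papain libraries, against 64.0 and 59.8 CPM in untreated libraries. The 11 tested members had a median difference of -2.72, against 0.165 over all genes tested. Members such as Cfap65, Dnah10 and Cfap53 passed the filter only through the untreated libraries, and Cfap97 and Rsph1 only through treated ones, which fixes their sign; without the filter the median was -1.81 over 24 members, and with 1 library left out it ranged over -4.12 to -1.81.

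Papain with FK506 set against papain gave 0 of 8178 genes called in AEC1 (0%; 496 at an unadjusted p under 0.05) and 0 of 11 members in limma, with 1 member at an unadjusted p under 0.05. On the recovered reads edgeR called 0 genes, and DESeq2 95 genes and no member. The libraries with FK506 lay above both papain libraries for 1 member (Cfap36), beside 19.5% of all genes tested, and below both for 2 (Rsph1 and Cfap97), beside 12.9%. Rsph1 passed the filter only through the papain libraries, which fixes its sign. Cfap36 stood at 22.2 and 17.7 CPM with papain and FK506, against 0 in both papain libraries (adjusted p = 0.862 in limma). Rsph1 was at 0 with papain and FK506, against 51.9 and 19.5 CPM with papain (adjusted p = 0.651 in limma), and Cfap97 at 35.0 and 14.2 CPM against 41.3 and 39.0 CPM. The median difference was 0 over the members and 0.0762 over all genes.

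Papain with FK506 set against untreated AEC1 gave 2 of 8178 genes called (0.0245%; 957 at an unadjusted p under 0.05), neither of them a member, in limma; 4 members had an unadjusted p under 0.05. On the recovered reads edgeR called 29 genes and no member, and DESeq2 501 genes with 1 member, Cfap65. Cfap65 and Dnah10 were at 0 in all 4 treated libraries, so both had the same values with and without FK506 (adjusted p = 0.314 in limma for each against untreated). Cfap44 was at 0 with papain and FK506, against 101.0 and 159.9 CPM in untreated libraries (adjusted p = 0.322 in limma), and Cfap53 at 0 and 1.2 CPM against 20.2 and 46.0 CPM (adjusted p = 0.342 in limma). The libraries with papain and FK506 lay below both untreated libraries for the same 6 members as with papain, beside 14.4% of all genes tested, and above both for Cfap97, beside 24.9%. Here too Cfap65, Dnah10 and Cfap53 passed the filter only through the untreated libraries and Cfap97 only through treated ones. The filter thus partly sets these counts and the median. The members' median was -2.39, against 0.299 over all genes, and -1.65 over 24 members without the filter. These 3 comparisons share libraries.

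Markers of other cells are given beside these values; in limma no mesothelial or AEC2 marker was called in the 3 AEC1 comparisons, and 1 of 9 tested fibroblast and smooth muscle genes was called, for papain with FK506 against untreated. The 5 mesothelial genes summed to 1546.2 and 1985.2 CPM with papain and FK506, 2260.6 and 3410.6 CPM with papain, and 4956.1 and 4165.6 CPM in untreated AEC1. The members' sum had the same order of conditions, but its papain replicate 2 lay above papain with FK506 only through Cfap43. AEC2 markers summed to 2045.6 and 4789.2 CPM with papain and FK506, 2538.2 and 1696.5 CPM with papain, and 6808.0 and 10209.1 CPM in untreated AEC1. Fibroblast and smooth muscle genes summed to 11355.1 and 8046.9 CPM, 12654.0 and 6056.6 CPM, and 7289.5 and 4954.6 CPM in the same order. The other multiciliated cell genes, at 134.2 and 35.4 CPM with papain and FK506 and 152.5 and 43.1 CPM with papain, were below the 259.3 and 230.1 CPM of untreated AEC1. The part of other cells in the members' levels was not tested.

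Within AEC2 no member passed the limma test in any comparison of treatments or had an unadjusted p under 0.05, and 24 of 58 passed the filter. The recovered reads leave 1 untreated AEC2 library, the one nearly identical to the papain replicate 2, and comparisons with untreated cells on these reads rest on it. On them edgeR called 0 genes in each comparison, and DESeq2 4 for papain against untreated, 18 for papain with FK506 against papain and 4 for papain with FK506 against untreated, with no member among them. Papain against untreated called 0 of 6719 genes (0%; 15 at an unadjusted p under 0.05) in limma. This comparison sets the near-identical libraries against each other, and the only other libraries differed widely: Dnah5, Cfap298 and Cfap53 were at 0 in the papain replicate 1 and at 137.0, 184.0 and 120.0 CPM in the untreated replicate 1. In the opposite direction, Rsph4a stood at 108.8 CPM in the papain replicate 1 and at 11 CPM in the untreated replicate 1. No member separated the papain from the untreated libraries; of all genes tested 13.6% lay above and 2.4% below.

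Papain with FK506 against papain in AEC2 called 0 of 6719 genes (0%; 284 at an unadjusted p under 0.05). Both values with FK506 lay above those with papain alone for 5 of the 24 members (Cfap36, Cfap43, Cfap161, Rsph10b and Tekt1), beside 16.7% of all genes tested, and below them for none, beside 10.7%. Cfap43, Cfap161, Rsph10b and Tekt1 passed the filter only through libraries that were untreated or had FK506. They could therefore not lie below the papain libraries, and the filter partly sets these counts. Cfap161 stood at 50.1 and 126.8 CPM with papain and FK506, against 0 in both papain libraries (adjusted p = 0.909 in limma). Papain with FK506 against untreated called 0 of 6719 genes (0%; 307 at an unadjusted p under 0.05). Of the 24 members 2 (Cfap36 and Cfap161) lay above both untreated libraries, beside 18.9% of all genes tested, and 6 (Cfap20, Cfap53, Cfap58, Cfap100, Dnah5 and Tekt4) below both, beside 11%, none of them past the test. Tekt4 passed the filter only through untreated and papain libraries. Without the near-identical pair, papain and untreated have 1 AEC2 library each, and the lone library is assumed to vary like the group with 2. The 3 comparisons then called 0 of 5029 genes and 0 of 20 members in limma, with 487, 589 and 533 genes at an unadjusted p under 0.05.

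In ILC2, 9 of the 40 listed members were above 0 in at least 1 library, and Cfap36 was the member that passed the filter. It stood at 0, 23 and 2 CPM with papain and FK506, 2, 31 and 6 CPM with papain, and 21, 13 and 241 CPM in untreated ILC2. Papain against untreated called 0 of 6271 genes (0%; 234 at an unadjusted p under 0.05), papain with FK506 against papain 1 gene (0.0159%; 262 at an unadjusted p under 0.05), and papain with FK506 against untreated 0 (0%; 250 at an unadjusted p under 0.05), with Cfap36 at an adjusted p of 0.985, 0.998 and 0.982 in limma in that order. Without the papain with FK506 replicate 3, the Cfap36 difference was 0.03 for papain with FK506 against papain (adjusted p = 0.998 in limma), in place of -0.64 with all libraries. The value of 241 CPM came from the untreated replicate 3, in which the airway secretory genes summed to 38748 CPM, while the other 8 ILC2 libraries held 0 to 179 CPM of them; its Foxj1 was listed at 0. The untreated replicate 3 belongs with the other replicates 3 to the file code that the basophil libraries also carry, which entered the fit as a term.

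Other members were above 0 in 1 to 5 of the 9 ILC2 libraries. Dnah8, a heavy chain known from sperm flagella, stood at 170 CPM and Cfap53 at 131 CPM in the papain with FK506 replicate 1, and these 2 genes made up its whole sum of 301 CPM. Dnah8 was at 11 CPM in replicate 2 of that condition and at 0 in the other 7 libraries. Cfap20 was above 0 in 5 libraries, at 2 to 46 CPM. Cfap45 stood at 16 and 44 CPM in papain replicates 1 and 2, at 1 CPM in 1 library with papain and FK506, and at 0 in the other 6 libraries. Dnah11 was at 40 CPM in the untreated replicate 3. Cfap126, Dnah5, Dnah10 and Rsph1 were listed at 0 in all 9 libraries.

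In the basophil libraries 10 of 40 members were above 0. Cfap36 was above 0 in all 6 treated libraries, at 49.3, 4.8 and 7.3 CPM with papain and FK506 and at 35.2, 13.2 and 35.1 CPM with papain, and at 0 in the untreated library. The groups overlapped (adjusted p = 0.9 in limma), and papain with FK506 against papain called 0 of 5853 genes (0%; 354 at an unadjusted p under 0.05). The papain with FK506 replicate 7 had the highest sum, from Cfap45 at 71.1 CPM, Cfap36, Cfap126 at 43.2 CPM and Cfap57 at 10.5 CPM. In that library airway secretory genes summed to 6540.0 CPM, AEC2 markers to 11426.1 CPM and Foxj1 stood at 47.1 CPM, the highest of each among the 7 basophil libraries. The untreated library gives no test and is set beside the others as a value only.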

How the data were processed

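RNA of cells sorted from mouse lung was read as 3' tags, per the labels' protocols. Tools listed in the submitters' processing notes are the aligner STAR 2.7.0c and the counter featureCounts 1.6.0, with mm10 and GRCm38.p6 as builds; the strand setting of the counting is not given. The authors deposited CPM values (counts scaled to each library's total) for AEC1, basophil and 5 of 6 AEC2 libraries. The untreated AEC2 replicate 1 and the 9 ILC2 libraries hold the same quantity rounded to whole numbers as deposited, treated here as a score and not as counts. In 11 AEC libraries whole reads were recovered from the CPM steps, with 100% of low values whole.

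The members were all symbols that match the naming patterns. The members and gene lists were chosen with earlier results of these data known. Values were divided by TMM factors, and log2(CPM + 2) was tested with limma 3.58.1 (moderated test with a trended prior, two-sided) in R 4.3.3. Genes tested reached 10 CPM in at least 2 libraries (AEC fits) or 3 (ILC2 and basophil fits), and a gene was called at a Benjamini-Hochberg adjusted p under 0.05 over all genes tested. ILC2 fits held a term for the code in the file names, which separates replicate 3 from replicates 1 and 2. Alternatives were an added 1 or 5 CPM, no filter, other or no scaling factors, a replicate block, each library left out, and edgeR 4.0.16 and DESeq2 1.42.0 on recovered reads. Leaving out the near-identical AEC2 pair was chosen after seeing the data. The scripts were tested on simulated data. Members named first were those at 10 CPM or more in 3 or more libraries, those with the highest values in any library, and for each list the genes highest in the untreated AEC2 replicate 1; other members and list genes were named after their values were seen.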

Additional observations from a re-analysis of the deposited data

Results flagged for a closer look

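Cfap36 differed in opposite directions in the 2 alveolar labels when papain with FK506 was set against untreated, with no overlap in either. Of all genes tested, 18.9% lay above both untreated libraries in AEC2 and 14.4% below both in AEC1. Cfap36 was found by a search over all members and their sum in all treatment comparisons of these labels. In AEC2 it stood at 88.3 and 43.9 CPM with papain and FK506, against 0.0 and 16.2 CPM in untreated libraries. In AEC1 it stood at 22.2 and 17.7 CPM with papain and FK506, against 64.0 and 59.8 CPM in untreated libraries. Neither change passed the limma test (adjusted p = 0.919 in AEC2 and 0.698 in AEC1), and the difference between the labels was not tested. The value of 16.2 CPM comes from the untreated library of the near-identical pair.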

How the results depend on the processing

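For AEC2 against AEC1, edgeR on recovered reads called 5 members (Cfap126, Cfap45, Cfap65, Dnah5 and Rsph1) and DESeq2 called 6 (Cfap126, Cfap20, Cfap45, Cfap65, Dnah10 and Rsph1), all higher in AEC2, beside 891 and 1608 of 9712 genes; neither set of reads holds the untreated AEC2 replicate 1. Leaving out 1 library gave 879 to 1148 genes and 1 to 6 members, with the lowest member count (1) without the untreated AEC2 replicate 1 or the papain with FK506 replicate 2, and the highest (6) without the papain replicate 1. In AEC1, papain against untreated gave 15 genes in edgeR, and 322 genes and 2 members in DESeq2; papain with FK506 against papain gave 95 genes in DESeq2; papain with FK506 against untreated gave 0 genes with 1 CPM added, 8 with 5 CPM, 29 in edgeR, and 501 genes and 1 member in DESeq2, and 0 to 1 genes with a library left out. In AEC2 the treatment comparisons gave 4, 18 and 4 genes in DESeq2, in the order papain against untreated, papain with FK506 against papain and papain with FK506 against untreated, and 0 to 2, 0 to 1 and 0 to 5 genes with a library left out. In ILC2, papain against untreated gave 1 gene with 5 CPM added, 3 with no factors, 2 with relative log expression factors and 1 with no file code term. In ILC2, papain with FK506 against papain gave 2 genes with 5 CPM added, 2 with no factors and 0 from replicates 1 and 2 only, and papain with FK506 against untreated gave 1 gene with 5 CPM added, 1 with no factors and 1 with relative log expression factors. With a library left out the first 2 of these gave 0 to 2 genes each and the last 0. Basophils gave 0 to 5 genes, with 3 of them without the untreated library. Without Cfap36 the mean member sum was 76.9 CPM in AEC1 with papain and FK506 (96.8 CPM with it), 26.7 CPM in untreated ILC2 (118.3 CPM with it) and 20.6 CPM in basophils with papain (48.5 CPM with it). The causes were not tested. Of the members whose adjusted p is given, Cfap36 reversed in ILC2, papain with FK506 against papain: its difference of -0.64 ranged over -1.93 to 0.41 with a library left out, above 0 without the papain replicate 2 (0.41) or the papain with FK506 replicate 1 (0.16) or 3 (0.03).

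With the replicate block, AEC2 against AEC1 called 1233 genes and 4 members, with Dnah5 added, and papain against untreated in ILC2 called 2 genes; the block changed no other count of calls. With it, 5 members in place of 6 had an unadjusted p under 0.05 for papain against untreated in AEC1, and 1 in place of 0 for papain with FK506 against papain in AEC2. Replicate numbers were not taken as pairs: deviations of libraries with the same number correlated at -0.02 to 0.02 in AEC1 and 0.05 to 0.23 in ILC2, and in AEC2 at -0.01 apart from 0.45 for papain and untreated, which hold the near-identical pair.

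With 2 libraries a group and most members at 0 in several libraries, depth limits every value below about 10 CPM, and a value of 0 does not show absence. Where a left-out library leaves a group with 1, that library is assumed to vary like the others.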
